A study of Mus musculus with 30 samples.

Results

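The transcriptome of Abcb10-null MEL cells after 5 days of differentiation was compared with that of the same cells before differentiation. The comparison rests on 10 of the 30 libraries of the series, the 5 Abcb10-null libraries of day 0 and the 5 of day 5. They were taken by the genotype and the day in the sample labels, and no measured value chose them. MEL is an established mouse erythroleukemia line that resembles an arrested erythroid progenitor. The Abcb10-null cells carried a CRISPR/Cas9 disruption in exon 1 of Abcb10 and came from 1 clone, so the clone and the genotype cannot be told apart. Day 0 cells received no DMSO and day 5 cells had been in 1.5% DMSO for 5 days, in a medium shared by every group. The series holds no Abcb10-null culture kept for 5 days without DMSO, so DMSO and time in culture cannot be told apart either. WT MEL cells sampled in the same way, again 5 libraries at day 0 and 5 at day 5, are used below to show where the Abcb10-null change differed. The labels call the 5 libraries of a group biological replicates without saying what separated them, and the p-values measure the spread between these libraries.

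DMSO releases MEL cells from their arrest, after which they leave the cell cycle and build the proteins of a red cell: globin, heme enzymes, membrane skeleton and blood group proteins. Heme is made in a chain of reactions shared between mitochondria and cytosol, opened by the aminolevulinate synthases (Alas2 in erythroid cells) and closed by ferrochelatase (Fech), which inserts iron. ABCB10 is an ATP-binding cassette transporter of the inner mitochondrial membrane that erythroid cells induce as they mature. When heme is short, the kinase HRI (Eif2ak1) phosphorylates eIF2α, general translation slows, and the transcription factor ATF4 is made and switches on genes for amino acid supply.

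Depth was 16454936 to 20157768 counts per library at day 0 and 9906783 to 18107934 at day 5. Day 5 replicate 4 stood apart: it had the fewest counts, yet 36511 genes had at least 1 count, against 17774 to 18636 in day 5 replicates 1 to 3 and 27675 in replicate 5. Genes too weakly counted to be tested took 1.604% of its counts, 0.369% in replicate 5 and 0.121% to 0.156% in the other 3. Results are therefore also given without replicates 4 and 5 where that changed a call or moved a count by more than 1.5 times. WT day 5 replicate 5 also stood apart, and differences between genotypes are given without it where it matters. In some genes it changed less than the other WT day 5 libraries. Atf4 was at 416 CPM in it and at 135 to 188 CPM in the others, with a WT day 0 mean of 462 CPM. In some it changed more. Ddit3 was at 321 CPM in it and at 54.5 to 72.4 CPM in the others, with a WT day 0 mean of 67.5 CPM. Each of the 9 erythroid markers tested had counts in both groups, though not in every library. Their summed level was 2056 to 2235 CPM (counts scaled to a common library size) at day 0 and 4608 to 5881 CPM at day 5. Alas2 alone went from a mean of 39.3 to 2342 CPM. Of the 9 markers 5 rose and 3 fell, or 6 and 1 without replicates 4 and 5. Over all genes tested 33.9% rose and 33.3% fell. These are bulk cultures, in which fewer cells of a type and less RNA per cell cannot be told apart.

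Transcripts of the targeted gene were still made and rose during differentiation. Abcb10 (ENSMUSG00000031974, GRCm38 chr8:123952459-123983122, minus strand) stood at 71.8, 76.4, 67.1, 79.3 and 76.7 CPM in day 0 replicates 1 to 5 and at 232, 237, 232, 178 and 176 CPM at day 5. The groups did not overlap, and the log2 fold change was 1.52 (SE 0.0988, adjusted p = 1.73e-09, edgeR). In WT cells the same transcript went from 119 ± 5.64 to 1220 ± 46.6 CPM (mean ± SD, n = 5), and the Abcb10-null change was lower by a log2 difference of -1.83 (SE 0.126, edgeR adjusted p = 7.08e-10). Gene counts do not show whether these transcripts carry the disruption.

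Differentiation of Abcb10-null cells moved most of the transcriptome. Of 12915 genes tested with edgeR, 4380 rose and 4297 fell at an adjusted p under 0.05, that is 67.2% in either direction, 33.9% higher and 33.3% lower. With an added limit of 0.58 on the log2 fold change, the limit used in the study, 3054 rose and 3092 fell; 399 rose and 491 fell by more than 2 on that scale. The median over the genes tested was 0.01. In 3416 genes (26.4%) each day 5 library was above each day 0 library, and in 3578 (27.7%) each was below. Shares of the listed genes given below are to be read against these backgrounds. For WT the backgrounds are 36.5% risers and 34.7% fallers. For the difference of the change between genotypes they are 16.8% higher and 14.7% lower in Abcb10-null cells. Of 10859 protein-coding genes tested 3960 rose and 3819 fell, and of 608 processed pseudogenes 50 rose and 139 fell.

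**Figure D1:**
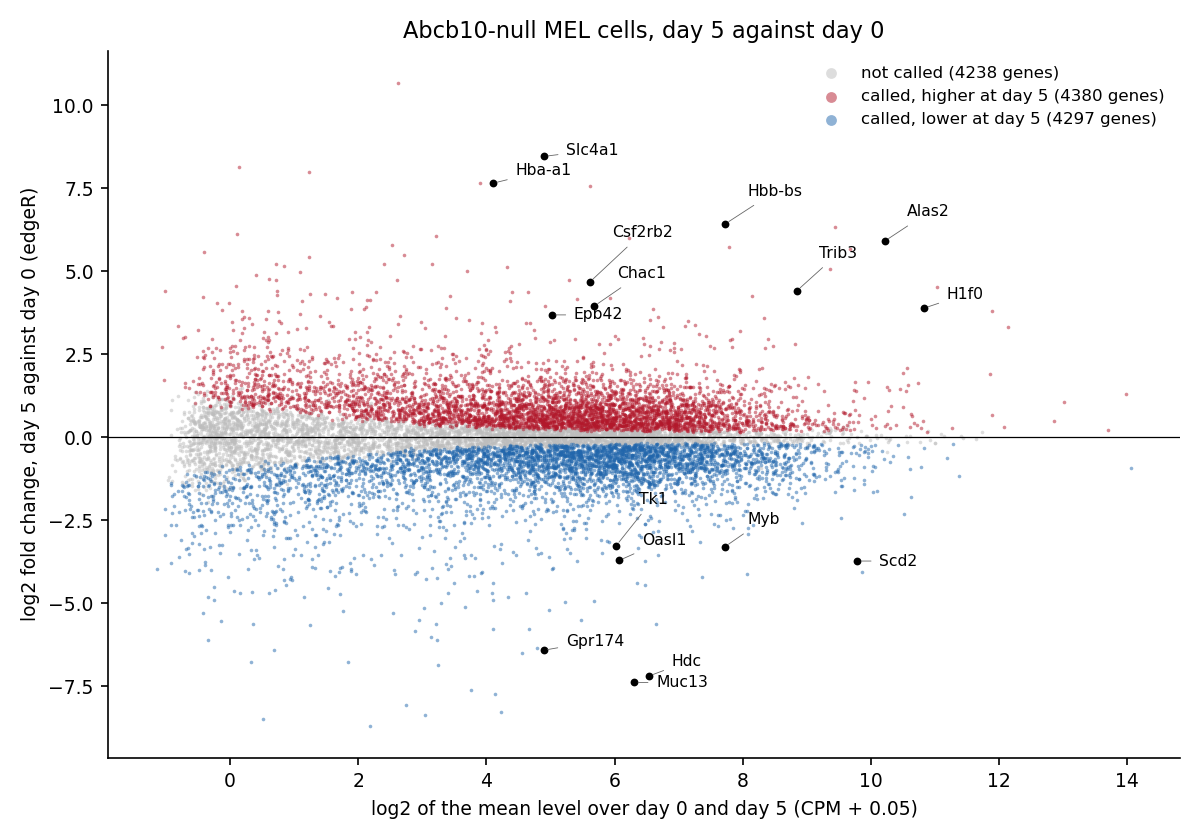
Change of the 12915 genes tested in Abcb10-null cells, day 5 against day 0: log2 fold change (edgeR) against the log2 of the mean level of both days in CPM + 0.05, each point 1 gene. Red points rose (4380), blue points fell (4297) and grey points were not called (4238); the named genes reach from Slc4a1 at 8.46 to Muc13 at -7.39.

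Red cell genes were among the 15 that rose most, beside others with no textbook role in the lineage. Alas2 (ENSMUSG00000025270, chrX:150547375-150570638), the entry enzyme of erythroid heme synthesis, was at 36.3, 43.3, 40.2, 39.3 and 37.2 CPM at day 0 and at 3156, 1994, 1978, 2400 and 2181 CPM at day 5, a log2 fold change of 5.91 (SE 0.143, edgeR adjusted p = 5.51e-14). Slc4a1 (chr11:102348824-102366203), the band 3 anion exchanger, was at 0 in 3 day 0 libraries and at 0.512 and 0.358 CPM in replicates 4 and 5, and reached 28.01, 96.5, 96.0, 25.4 and 50.5 CPM (log2 fold change 8.46, SE 0.62, edgeR adjusted p = 6.78e-09). Its day 5 libraries differed from each other by several fold, replicates 1 and 4 being the lowest, and all lay far above day 0; without day 0 replicate 4 the fitted value was 9.23.

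The globin transcripts were induced as well, from libraries that had been depleted of globin RNA during preparation, so their levels are not those of the cells. Hbb-bs, an adult beta globin, was at 6.93, 5.01, 5.34, 4.48 and 2.71 CPM at day 0 and at 632, 318, 268, 479 and 397 CPM at day 5 (log2 fold change 6.42, SE 0.272). Hba-a1, an alpha globin whose reads can be shared with its near-identical copy, went from 0.0556 to 0.256 CPM up to 19.97 to 58.7 CPM, and Hbq1b, a theta globin, from 0 to 0.529 up to 13.2 to 26.1 CPM. All 4 globin genes tested rose, and their median log2 fold change was 6.24.

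Among the other strong risers, Apol11a, an apolipoprotein L gene, was at 0 in all 5 day 0 libraries and at 6.12, 19.4, 19.3, 6.04 and 10.2 CPM at day 5, at least 74.3-fold higher when day 0 is set at a floor of 3 counts in each library. The serine protease gene Prss23 was likewise at 0 throughout day 0 and at 0.846 to 3.55 CPM at day 5, at least 12.8-fold higher on the same floor. The pseudogene Apol10c-ps had no more than 1 count in any day 0 library, and the ratio of its levels was 462 with a 95% counting interval of 82.3 to 18280. Apol11b, a close relative of Apol11a whose reads may not be fully separable from it, rose by 7.58 on the log2 scale. The acid-sensing channel gene Asic4 rose by 7.64, the collagen gene Col20a1 by 5.79, the reticulocyte ribonuclease gene Slfn14 by 5.47, Ripor3 by 5.21 and the kinase gene Matk by 5.15. Single day 0 libraries moved 2 of these values, to 8.585 for Asic4 without replicate 5 and to 6.18 for Matk without replicate 4. Such rises were not particular to Abcb10-null cells. In WT Apol11a rose by 10.11, Apol10c-ps by 8.75, Apol11b by 8.58, Asic4 by 6.94 and Col20a1 by 5.82. For none of these was the difference of the change between genotypes called.

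Several of the steepest losses were in genes better known from mast cells, granulocytes or natural killer cells, such as Hdc, Fcer1a, Clec4d and Gzmb. Hdc (chr2:126593667-126619299), the histidine decarboxylase that makes histamine, was at 176, 192, 183, 204 and 169 CPM at day 0 and at 1.32, 1.31, 1.30, 1.84 and 0.538 CPM at day 5 (log2 fold change -7.19, SE 0.162, edgeR adjusted p = 4.48e-14). Muc13, a transmembrane mucin, was at 162, 157, 135, 150 and 178 CPM and then at 1.64, 0.187, 0.226, 2.56 and 0.538 CPM, a log2 fold change of -7.39. Replicates 1 and 4 were the highest of its day 5 libraries, and all 5 lay far below day 0.

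Several of these transcripts all but vanished. Gzmb, the protease granzyme B, was at 7.22 to 10.1 CPM at day 0 and had counts at day 5 in replicate 4 alone (0.102 CPM), a ratio of 646 between the day 0 and day 5 means with a 95% counting interval of 116 to 25540. The corresponding ratios were 394 (134 to 1911) for the chemokine Ccl9, 334 (170 to 775) for the muscle fructose-bisphosphatase Fbp2, 317 (108 to 1537) for the paired receptor Pilrb1, 175 (31.2 to 6959) for Fcer1a, which encodes the alpha chain of the IgE receptor, 126 (49.1 to 465) for Pilra and 111 (30.3 to 917) for Cd200r2. Fitted log2 fold changes were -7.74 for Pilrb2, -7.63 for the C-type lectin Clec4d, -6.86 for Plac8, -6.49 for the CD200 receptor gene Cd200r4, -6.42 for the lysophosphatidylserine receptor Gpr174 and -6.36 for Gml. Clec4d, Ccl9, Cd200r4 and Fbp2 also fell in WT, by 5.08, 4.89, 4.45 and 4.00, with low levels at day 5 in both genotypes. The Pilr and Cd200r genes are families of close copies, and counts may be divided among them. In Gzmb, Clec4d, Pilrb2 and Cd200r2 day 5 replicate 4 was the highest library. Clec4d was at 0 in the other 4 day 5 libraries, and its fitted value without replicate 4, then against a group at 0 and so dependent on the prior count, was -11.84; that of Pilrb2 was then -8.63, and that of Plac8 was -7.59 without replicate 2.

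The heme synthesis enzymes rose in most steps but not in all. Of the 9 enzyme genes, 6 rose and 2 fell, with a median log2 fold change of 1.58, against a background of 33.9% risers. After Alas2 came Fech, which rose by 2.00, and Uros (uroporphyrinogen III synthase), which rose by 1.70; Ppox and Urod, named after their values were seen, rose by 1.65 and 0.59. Fech was at 74.7, 73.3, 76.0, 79.6 and 73.1 CPM at day 0 and at 379, 362, 299, 248 and 207 CPM at day 5, without overlap.

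Cpox, the coproporphyrinogen oxidase of the mitochondrial intermembrane space, went the other way. It was at 339, 393, 435, 412 and 411 CPM at day 0 and at 185, 268, 225, 123 and 119 CPM at day 5 (log2 fold change -1.10, SE 0.183, edgeR adjusted p = 6.12e-05). Alas1, the synthase of non-erythroid cells, fell by 0.54 on the log2 scale. Alad, aminolevulinate dehydratase, the step after Alas2, was at 162 to 185 CPM at day 0 and 145 to 222 CPM at day 5, and its groups overlapped (log2 fold change 0.08, SE 0.102, edgeR adjusted p = 0.494).

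In WT cells all 9 enzyme genes rose (background 36.5% risers in WT), and for 7 of the 9 the Abcb10-null change was lower than the WT change (background 14.7% lower over 14020 genes). The log2 difference was -1.91 for Cpox (SE 0.328, edgeR adjusted p = 0.000113), which rose in WT by 0.81, and -1.45 for Alad, which rose in WT by 1.54. It was -0.93 for Fech. For Alas2 the difference of the change was -0.0025 (SE 0.208, edgeR adjusted p = 0.995): the Abcb10-null level was lower at both days, 39.3 ± 2.75 and 2342 ± 486 CPM against 99.5 ± 7.86 and 6005 ± 1280 CPM in WT.

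**Figure D2:**
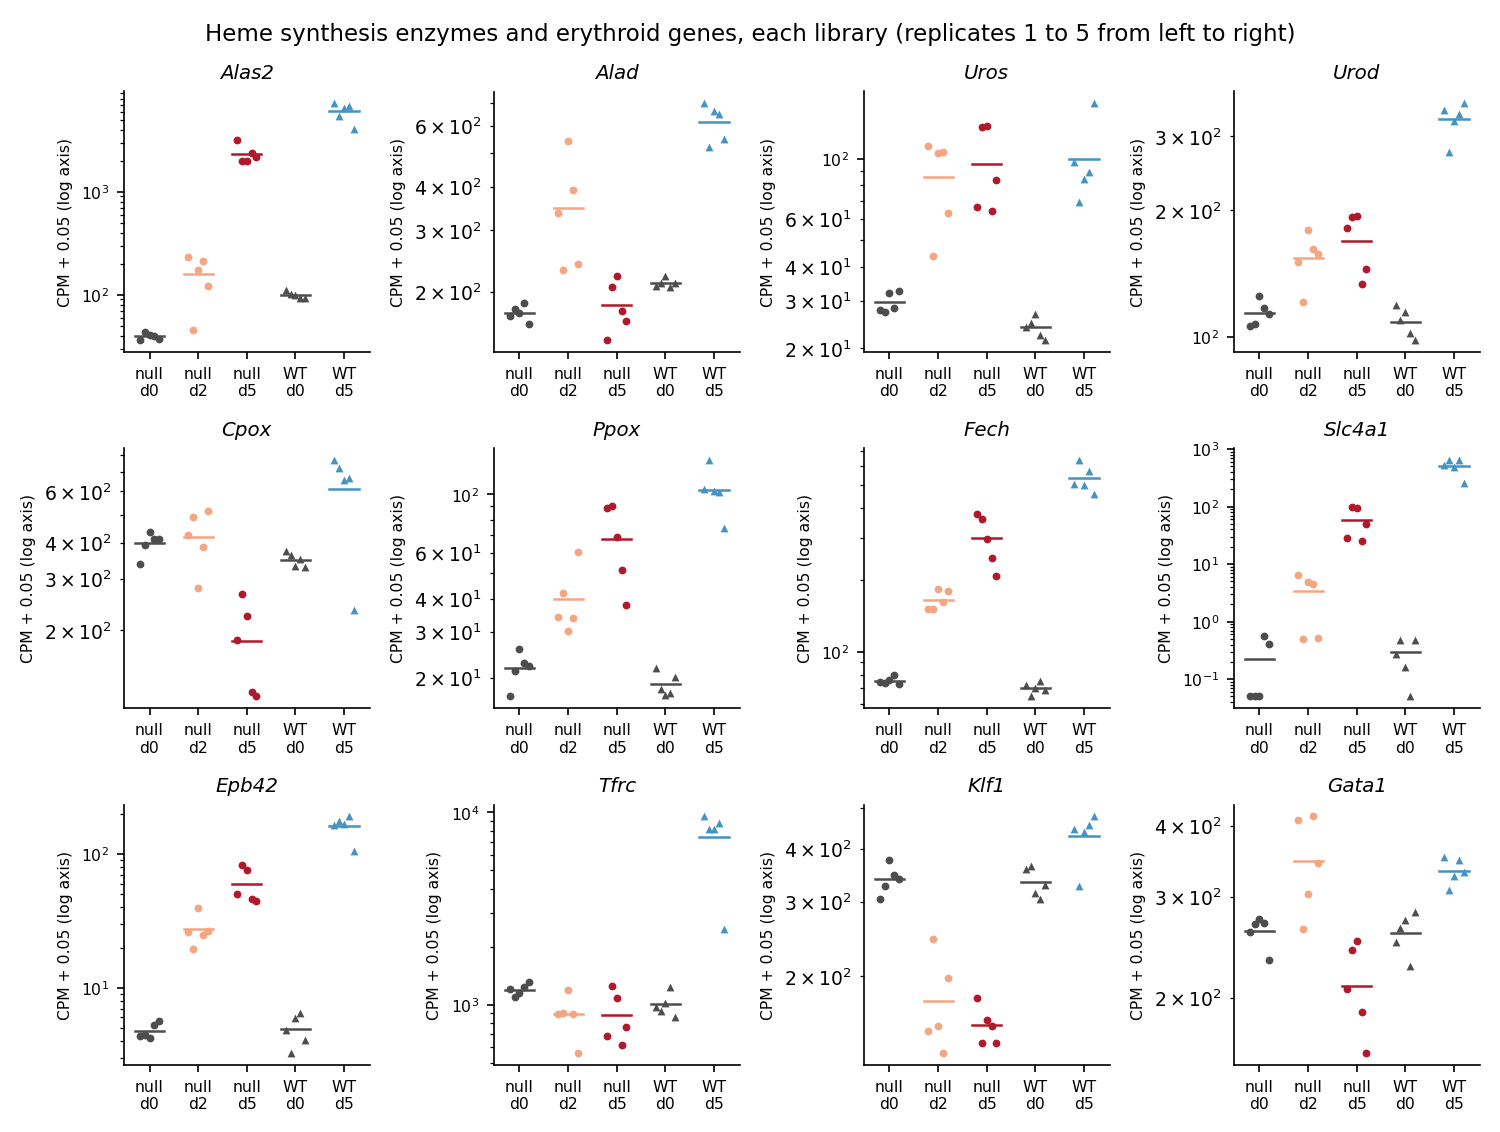
Levels of 7 heme synthesis enzyme genes and 5 erythroid genes in each library, in CPM + 0.05 on a log axis; circles are Abcb10-null at day 0, day 2 and day 5, triangles WT at day 0 and day 5, and the line is the mean of 5 libraries. Alas2, Slc4a1 and Epb42 rose in both genotypes, while Cpox and Klf1 lay below their day 0 level in the Abcb10-null day 5 libraries and Tfrc overlapped it.

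Promoters of the heme enzymes were searched for the GATA motif, the letters AGATAA or TGATAA on both strands, in the 250 bases before the RefSeq transcript start (GRCm38.p6), since GATA1 is the main activator of erythroid genes. It was found in 3 of the 7 enzyme genes with a promoter sequence (42.9%) and in 7 of 17 red cell membrane genes (41.2%), against 11.8% of the 9117 tested genes with one. One gene that rose and one that fell are shown, written along the transcript's direction with the motif in capitals, because both carry it at the same distance, from 86 to 81 bases before the start. The Alas2 window is chrX:150547301-150547366 and the Cpox window chr16:58670092-58670157, both on the plus strand.
Alas2: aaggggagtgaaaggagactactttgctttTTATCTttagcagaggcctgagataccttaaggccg
Cpox: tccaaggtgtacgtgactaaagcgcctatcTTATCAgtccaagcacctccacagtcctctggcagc
A match is a description of the letters and was not tested for binding.

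Of 14 heme transport and breakdown genes 6 rose and 4 fell, and of 18 iron genes 7 rose and 6 fell, against backgrounds of 33.9% risers and 33.3% fallers, so these counts do not set the lists apart. Slc25a37 (mitoferrin 1), which carries iron into mitochondria, rose by 1.11 on the log2 scale from 24.5 to 27.8 CPM at day 0 to 39.6 to 79.2 CPM at day 5. Ftl1, the ferritin light chain that stores iron, rose by 1.57, and Ncoa4, the receptor that delivers ferritin to lysosomes, by 1.00. Steap3, the endosomal ferric reductase that acts with the transferrin receptor, fell by 1.72 on the log2 scale.

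Tfrc, the transferrin receptor through which erythroid cells take up iron, did not gain. It was at 1210, 1093, 1150, 1230 and 1306 CPM at day 0 and at 690, 1256, 1085, 619 and 761 CPM at day 5, with overlap. The log2 fold change of -0.43 (SE 0.159, edgeR adjusted p = 0.0257) was no longer called without replicates 4 and 5 (-0.25, adjusted p = 0.153) or in a fit of all 30 libraries (adjusted p = 0.119), and replicates 4, 5 and 1 of day 5 and 5 of day 0 each removed the call when left out. In WT cells Tfrc rose from 1002 ± 139 to 7428 ± 2817 CPM, and the difference of the change was -3.32 (SE 0.347, edgeR adjusted p = 2.46e-07).

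Heme breakdown also moved. Hmox1, heme oxygenase 1, was at 37.0, 38.4, 36.0, 37.1 and 39.0 CPM at day 0 and at 55.1, 71.6, 58.1, 51.1 and 89.1 CPM at day 5 (log2 fold change 0.80, edgeR adjusted p = 4.03e-05), while in WT it fell by 2.29. The difference was 3.10 (SE 0.305, edgeR adjusted p = 1.10e-07). Of the biliverdin reductases that act after it, Blvrb rose by 0.86, and Blvra had a log2 fold change of -0.19 (edgeR adjusted p = 0.06). Eif2ak1, the gene of the heme-regulated kinase HRI, rose by 1.58. In WT it rose by 2.27, and the difference of the change was not called (-0.68, edgeR adjusted p = 0.134).

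Most genes of the red cell membrane rose. Of 24 18 rose and 2 fell, with a median log2 fold change of 1.32. Epb42, protein 4.2 of the membrane skeleton, was at 4.28, 4.36, 4.17, 5.18 and 5.58 CPM at day 0 and at 49.9, 82.7, 75.9, 46.2 and 44.8 CPM at day 5 (log2 fold change 3.68, SE 0.19), without overlap. The 2 that fell were Cd44, an adhesion receptor that erythroblasts lose as they mature, by 2.24 on the log2 scale, and Ermap, which carries the Scianna blood group, by 0.53. Compared with WT, in which 22 of the 24 rose, the change was lower for 13 of the 24 and higher for 0, for example by a log2 difference of -1.35 for Epb42 (SE 0.288, edgeR adjusted p = 0.000965).

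Transcription factors of the lineage did not move as a block. Of 16 erythroid factors 9 rose and 5 fell, against backgrounds of 33.9% and 33.3%. Foxo3, which drives antioxidant and maturation genes, rose by 2.17, Tal1, a partner of GATA1, by 1.37, and Zfpm1, the cofactor FOG1, by 1.12. Klf1, the erythroid Krüppel-like factor, was at 304, 328, 377, 347 and 339 CPM at day 0 and at 178, 139, 157, 153 and 139 CPM at day 5, a fall of 1.14 without overlap, and Lmo2, a bridging protein of the same complexes, fell by 1.76. Gata1 was at 232 to 274 CPM and then 160 to 251.5 CPM; its log2 fold change of -0.31 (edgeR adjusted p = 0.0219) was not called without replicates 4 and 5 (-0.16, adjusted p = 0.121). The Klf1 change was lower than in WT, where the gene rose by 0.36, by a log2 difference of -1.49 (SE 0.137, edgeR adjusted p = 4.00e-08), and that of Tal1 by -1.36.

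Factors of the progenitor state declined. Of 13 tested, 1 rose and 7 fell, with a median of -0.59. Myb, which keeps progenitors dividing, was at 384, 371, 346, 416 and 402 CPM at day 0 and at 25.7, 33.8, 39.6, 36.8 and 57.5 CPM at day 5 (log2 fold change -3.30, SE 0.163). Spi1 (PU.1), the factor whose activation arrests Friend-virus leukemia cells, fell by 1.14, and Ikzf1, a lymphoid and erythroid regulator, by 1.10, while Runx1 rose by 1.74. Myc was at 23.8 to 31.7 CPM at day 0 and at 26.5 to 31.1 CPM at day 5, and the groups overlapped (log2 fold change 0.03, SE 0.105, edgeR adjusted p = 0.804). In WT cells Myb fell by 4.82 and Myc by 1.21, and the difference of the change was 1.52 for Myb and 1.25 for Myc.

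Cytokine signalling and terminal maturation genes rose in the main. Of 16 genes of cytokine receptor signalling 10 rose and 2 fell. Csf2rb2, a receptor subunit for interleukin 3, rose by 4.67, and Cish, a feedback inhibitor induced by STAT5, by 3.60. Pim1, a STAT5-induced kinase, rose by 3.57, while the phosphatase gene Ptpn6 (SHP-1) fell by 2.03. Of 17 terminal maturation genes 13 rose and 1 fell. Hemgn (hemogen) rose by 2.46, Ulk1, the kinase that starts autophagy, by 2.27 and the ubiquitin-conjugating enzyme Ube2h by 2.06; Fbxo9, a ubiquitin ligase subunit, fell by 1.02. For Bnip3l (NIX), which marks mitochondria for removal, the log2 fold change was -0.08 (edgeR adjusted p = 0.551), and for Trim58, a reticulocyte ubiquitin ligase, -0.44 (adjusted p = 0.246). Of 24 autophagy and lysosome genes 18 rose and 2 fell, among them Map1lc3a, an LC3 protein of the autophagosome, by 2.58 and Atg12 by 1.94.

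Genes of the ATF4 program rose almost as a whole. Of 32 tested, 29 rose and 0 fell, with a median log2 fold change of 1.76, against a background of 33.9% risers and a median of 0.01 over all genes. Trib3 (ENSMUSG00000032715, chr2:152337422-152344032), a pseudokinase induced by ATF4 and CHOP, was at 37.9, 40.4, 42.5, 43.0 and 44.5 CPM at day 0 and at 770, 925, 981, 743 and 974 CPM at day 5 (log2 fold change 4.41, SE 0.106, edgeR adjusted p = 5.51e-14). Chac1, which degrades glutathione, was at 4.18, 7.17, 6.90, 6.08 and 7.01 CPM and then at 80.2, 78.0, 78.1, 109 and 137 CPM, a log2 fold change of 3.95. In both genes the groups were far apart, and replicates 4 and 5 were the highest day 5 libraries for Chac1 but not for Trib3.

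Atf4 itself moved less, from 328, 312, 347, 355 and 325 CPM to 584, 488, 547, 613 and 698 CPM (log2 fold change 0.82, SE 0.0912). Ddit3, which encodes CHOP, rose by 2.93, the stress coregulator Nupr1 by 4.26, the glycine transporter Slc6a9 by 4.15, the transcription factor Atf3 by 3.96, Ppp1r15a (GADD34), which directs eIF2α dephosphorylation, by 3.85, and the cystine transporter Slc7a11 by 2.73. Asns, asparagine synthetase, was the most abundant of those named here, at 560 to 608 CPM at day 0 and 1059 to 1592 CPM at day 5. Its log2 fold change was 1.18.

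The ATF4 response element of these genes is the composite C/EBP-ATF motif, searched here as TGATGNAA on both strands in the same promoter windows. It was found in 6 of 28 listed genes with a promoter sequence (21.4%), which were Asns, Atf3, Chac1, Nupr1, Pycr1 and Slc7a11, against 2.30% of the tested genes. Windows of Chac1 (chr2:119351019-119351086, plus strand) and Atf3 (chr1:191183406-191183473, minus strand) are shown with the motif in capitals, since both genes rose by about 4 on the log2 scale and carry it in the same orientation.
Chac1: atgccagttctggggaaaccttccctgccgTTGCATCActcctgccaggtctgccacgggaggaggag
Atf3: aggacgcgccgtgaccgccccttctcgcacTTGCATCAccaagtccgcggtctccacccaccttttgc
Again the match describes the letters of the reference and not occupancy in these cells.

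In WT cells the same list went largely downward (5 rose and 15 fell of 32), and the change was higher in Abcb10-null cells for all 32 genes, with or without WT day 5 replicate 5 (background 16.8% higher). The difference of the change was 4.56 for Chac1 (SE 0.681, edgeR adjusted p = 2.28e-05), 3.67 for Trib3, 3.40 for Slc7a11, 2.15 for Ddit3, 2.01 for Asns and 1.92 for Atf4. For Trib3 4 of the WT day 5 libraries were at 17.97 to 31.4 CPM and replicate 5 was at 429 CPM; without that library the differences were 5.72 for Trib3, 6.21 for Chac1, 4.10 for Slc7a11 and 2.97 for Ddit3.

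**Figure D3:**
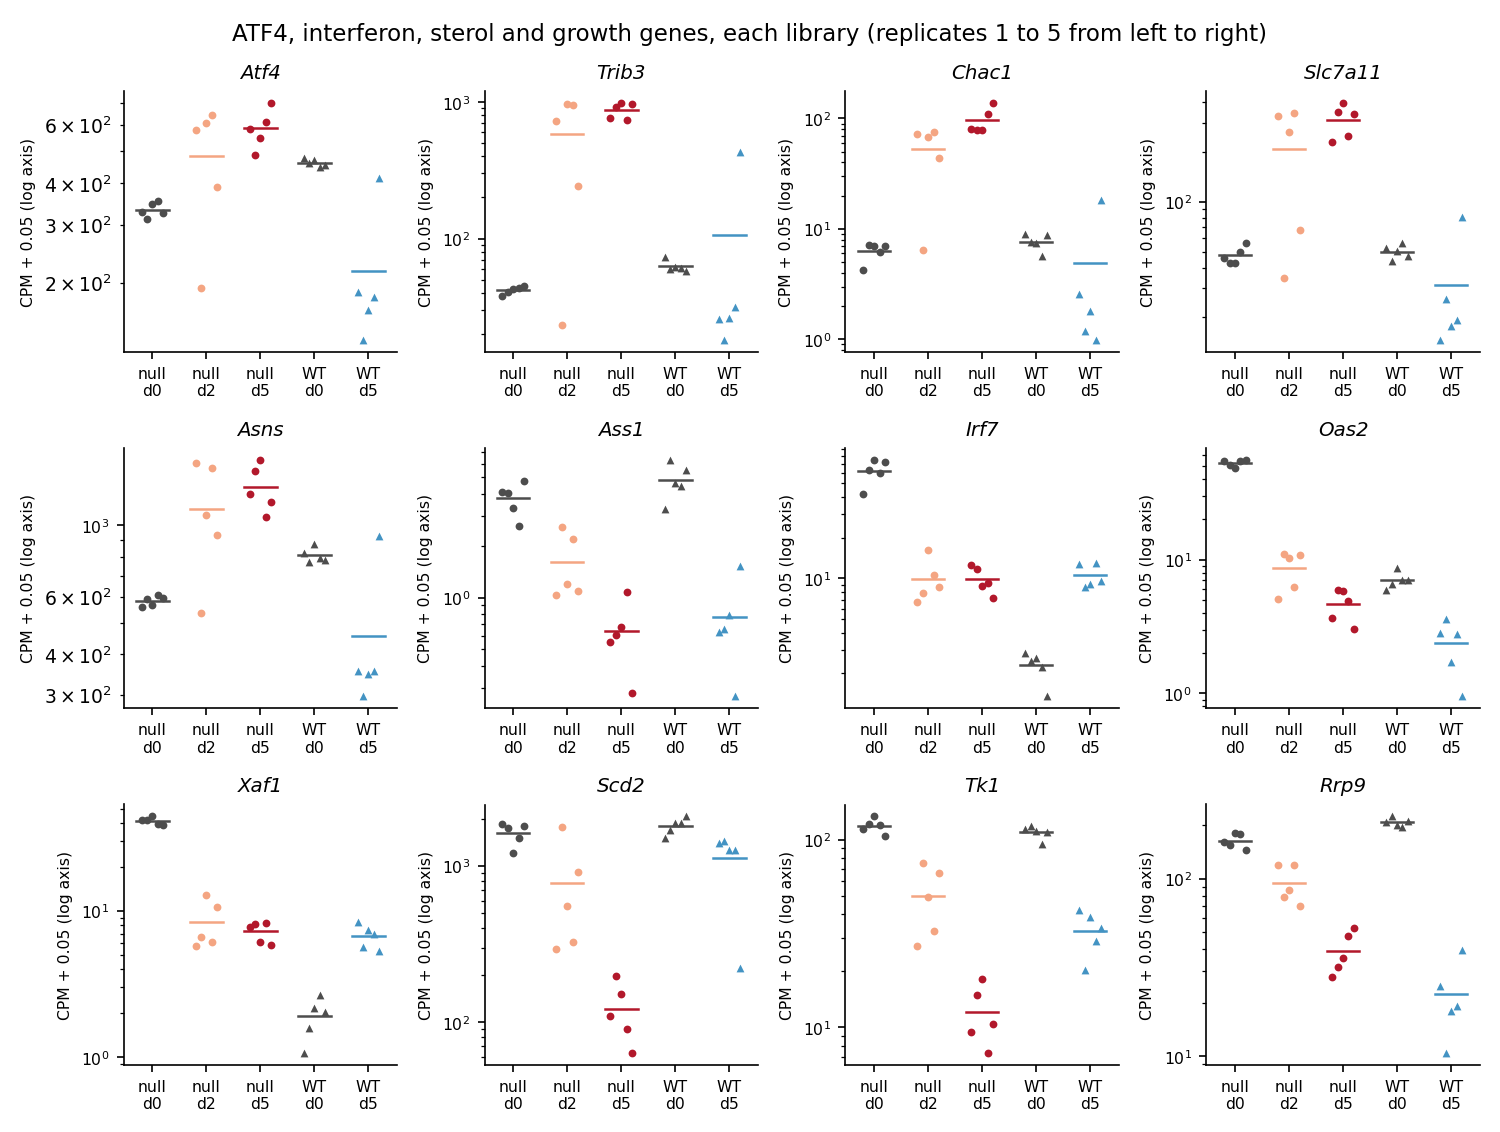
Levels of 12 genes of amino acid stress, interferon response, lipid synthesis, replication and ribosome assembly in each library, in CPM + 0.05 on a log axis; circles are Abcb10-null at day 0, day 2 and day 5, triangles WT at day 0 and day 5, lines the mean of 5 libraries. Trib3, Chac1, Slc7a11 and Asns rose in Abcb10-null cells, and WT day 5 replicate 5 is the library closest to the Abcb10-null day 5 level in each of the 4 panels; Irf7 and Xaf1 fell in Abcb10-null cells and rose in WT from a lower start.

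Amino acid supply followed the same direction in part. Of 17 amino acid transporters 13 rose and 0 fell (median 1.38), the arginine transporter Slc7a1 by 1.88 and the leucine transporter Slc7a5 by 1.94, while Slc7a6 (-0.11, edgeR adjusted p = 0.318) and Slc7a7 (0.39, adjusted p = 0.0671) were not called; Slc7a7 was called without day 5 replicates 4 and 5 (0.57, adjusted p = 0.0113). Among 20 cytosolic aminoacyl-tRNA synthetases, which charge tRNAs with amino acids, 12 rose and 5 fell. Cars (cysteine) rose by 1.32, Iars (isoleucine) by 1.11, Sars (serine) by 0.77 and Rars (arginine) by 0.52; Hars (histidine) fell by 1.32 and Kars (lysine) by 1.10. In WT 0 rose and 18 fell, and the difference was called higher in Abcb10-null cells for 18 of the 20, by 2.10 for Rars.

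Of 27 arginine and proline metabolism genes 8 rose and 16 fell (median -0.71), against backgrounds of 33.9% and 33.3%. In WT 6 of 26 rose and 18 fell. The change was higher in Abcb10-null cells for 10 of 27 and lower for 2. The first enzyme from citrulline to arginine, Ass1, fell by 2.68, from 2.56 to 4.71 CPM down to 0.231 to 1.02 CPM. Ass1 fell in WT by 2.70, and the difference of the change was not called (0.03, edgeR adjusted p = 0.976). Asl, the next enzyme, had a log2 fold change of -0.06 (edgeR adjusted p = 0.623). Aldh18a1 and Pycr1, which make proline, rose by 1.26 and 1.75. Smox, the spermine oxidase, was at 5.43 to 7.62 CPM and then at 90.9 to 133 CPM, a log2 fold change of 4.20. Azin2, which inhibits the antizyme that restrains polyamine synthesis, rose by 2.52. It rose by 3.29 in WT, and the difference was not called (edgeR adjusted p = 0.0912). Padi3, an arginine deiminase, fell by 0.62. Naprt, of nicotinate use, was at 0.793 to 1.13 CPM and then 0.505 to 2.56 CPM and was not called (0.68, edgeR adjusted p = 0.132), although it was without day 5 replicate 1 (0.91, adjusted p = 0.0243). The arginases Arg1 and Arg2 and the stem cell factor receptor Kit had too few counts to be tested.

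Other lists of the stress response held more fallers than risers. Of 14 genes of eIF2 and its kinases and phosphatases 4 rose and 9 fell: Eif2s1, which encodes eIF2α, fell by 1.09, Eif2ak2 (PKR) by 1.05, and Eif2ak4 (GCN2) was not called (-0.09, edgeR adjusted p = 0.395). Of 18 endoplasmic reticulum chaperone and folding genes 5 rose and 11 fell, against backgrounds of 33.9% and 33.3%. Dnajb9 rose by 2.08 and Herpud1, which serves the degradation of misfolded proteins, by 1.80, while Sdf2l1 fell by 1.85.

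Interferon-stimulated genes fell from a high start. Of 29 tested, 0 rose and 27 fell (median -2.19), against a background of 33.3% fallers. In those 27 the groups did not overlap, as in 27.7% of all genes tested in the lower direction. Oas2, an oligoadenylate synthetase that senses double-stranded RNA, was at 54.2, 50.9, 48.5, 54.7 and 55.5 CPM at day 0 and at 3.60, 5.85, 5.76, 4.81 and 3.00 CPM at day 5 (log2 fold change -3.50, SE 0.155, edgeR adjusted p = 2.67e-11). Irf7, the factor that amplifies interferon transcription, was at 41.6, 62.3, 74.6, 59.6 and 71.7 CPM and then at 12.5, 11.7, 8.82, 9.22 and 7.08 CPM, a log2 fold change of -2.63. The fall was 3.71 on the log2 scale for Oasl1, 3.40 for Rtp4 (4.32 without day 5 replicate 3), 3.07 for Oas1a, 2.597 for Bst2 (tetherin), 2.51 for Xaf1 and 2.48 for Trim30a.

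The interferon-stimulated response element, searched on both strands as GAAA, NN and GAAA in a row, was present in 8 of 21 promoters of the list (38.1%), against 3.16% of the tested genes. The Oas1a window (chr5:120907526-120907575, minus strand) and the Bst2 window (chr8:71537563-71537632, minus strand) are shown as examples of members that fell; capitals mark the element, which ends 11 bases before the start in Oas1a and 121 bases before it in Bst2.
Oas1a: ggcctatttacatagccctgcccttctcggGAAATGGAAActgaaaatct
Bst2: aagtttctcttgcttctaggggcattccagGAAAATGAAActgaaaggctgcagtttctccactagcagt
These windows do not overlap annotated exons.

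In WT cells 13 of 27 listed interferon genes rose and 8 fell (backgrounds 36.5% and 34.7% in WT). The change was lower in Abcb10-null cells for 22 of 29 and higher for 1 (backgrounds 14.7% and 16.8%). The genotypes stood apart at day 0: the summed level of the list was 2197 to 2391 CPM in Abcb10-null day 0 libraries and 691 to 747 CPM in WT day 0 libraries, against 810 to 954 and 619 to 774 CPM at day 5. Irf7 stood at a mean of 62.0 CPM at day 0 in Abcb10-null and of 2.24 CPM in WT, and at 9.86 and 10.6 CPM at day 5 (difference of the change -4.86, SE 0.279, edgeR adjusted p = 4.42e-11). For Xaf1 the difference was -4.35.

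Most lipid synthesis genes fell. Of 28 sterol and fatty acid synthesis genes 0 rose and 25 fell, with a median log2 fold change of -1.18. Scd2, a stearoyl-CoA desaturase, was at 1875, 1762, 1218, 1524 and 1812 CPM at day 0 and at 109, 196, 151, 90.3 and 63.5 CPM at day 5 (log2 fold change -3.73, SE 0.25, edgeR adjusted p = 2.40e-09), and its relative Scd1 fell by 3.16. Fdps, which makes farnesyl diphosphate for cholesterol, fell by 2.96. In WT 3 of the 28 rose and 16 fell; the change was lower in Abcb10-null cells for 15 and higher for 1, by -3.04 for Scd2 (SE 0.466, edgeR adjusted p = 3.16e-05), or -3.31 without WT day 5 replicate 5. The sterol element TCACNCCAC was found in 1 of 20 promoters of the list (5.0%), against 1.23% of the tested genes.

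Replication genes fell together. All 40 DNA replication genes tested fell (39 without replicates 4 and 5), with a median of -1.30. Tk1, thymidine kinase 1, was at 114, 121, 133, 119 and 104 CPM at day 0 and at 9.46, 14.8, 18.1, 7.27 and 10.4 CPM at day 5 (log2 fold change -3.27, SE 0.186, edgeR adjusted p = 4.11e-10). Uhrf1, which keeps DNA methylation through replication, fell by 3.02, the flap endonuclease Fen1 by 2.69 and the sliding clamp Pcna by 0.73. An E2F motif, TTTCCCGC or TTTGGCGC, was present in 6 of 31 promoters of the list (19.4%) and in 3.14% of those of the tested genes. In WT 39 of 40 fell, and the difference was called lower in Abcb10-null cells for 11 and higher for 1.

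Of 38 mitotic genes 14 rose and 10 fell, near the backgrounds of 33.9% and 33.3%. Cdc25b, a phosphatase that opens mitosis, rose by 1.47, Hmmr, a spindle protein, by 1.08 and the kinetochore gene Ndc80 by 1.06, whereas Aurkb fell by 1.11 and Kif20a by 0.90. The proliferation marker Mki67 was at 1306 to 2317 CPM at day 0 and 1771 to 2361 CPM at day 5 and was not called (0.19, edgeR adjusted p = 0.198), although it was without day 0 replicate 5 (0.29, adjusted p = 0.044). Of 26 G1 cyclins, kinases and inhibitors 12 rose and 10 fell, against the same backgrounds of 33.9% and 33.3%. Btg2, an antiproliferative gene, rose by 2.67, the retinoblastoma gene Rb1 by 2.04 and the inhibitor Cdkn1b (p27) by 1.07, from 117 to 134 CPM to 224 to 303 CPM, while Cdk4 fell by 1.64. Cdkn2d (p19) rose by 0.29, a call lost without day 0 replicate 5 (0.25, edgeR adjusted p = 0.0539), and Ccnd3, a cyclin of erythroid divisions, by 0.42. For Cdkn1b the change was lower than in WT by -0.88.

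Histone transcripts were mixed. These libraries were made from ribosomal RNA-depleted total RNA, so histone messages without a poly(A) tail are counted. Of 63 replication-dependent histone genes 26 rose and 17 fell (median 0.15), among them Hist1h4c, up by 1.67, Hist1h1c, up by 1.62, and Hist1h2bm, down by 2.00. Members of this family are near copies, and reads may be divided between them. Together they took 1.59% ± 0.246 of the counts at day 0 and 2.43% ± 0.597 at day 5 (exact permutation test, two-sided, p = 0.0317, 0.0508 after adjustment over 8 classes, n = 5 per group). In WT 4 rose and 53 fell, and the difference was called higher in Abcb10-null cells for 44 of 66 and lower for 3.

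Replacement histones, which are made outside S phase, had 5 risers and 3 fallers of 8. H1f0, the linker histone of resting cells, was at 214, 237, 261, 225 and 226 CPM at day 0 and at 2973, 3967, 4137, 2551 and 3461 CPM at day 5 (log2 fold change 3.89, SE 0.133). H3f3b, of the H3.3 variant, rose by 2.08, from 418 to 706 CPM to 1912 to 2923 CPM, and by 1.68 more than in WT (SE 0.178, edgeR adjusted p = 3.02e-07).

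Ribosome assembly genes fell, while few ribosomal protein genes did. Of 35 ribosome biogenesis genes 0 rose and 32 fell (median -1.09), with Rrp9, a protein of the U3 particle, down by 2.06 and Utp20 down by 2.05. Of 85 cytosolic ribosomal protein genes 35 rose, for example Rps27 by 0.69, and 7 fell (median 0.16), against backgrounds of 33.9% and 33.3%. Without replicates 4 and 5 the counts were 19 and 10, so the number of risers does not set the list apart. Their pseudogenes share sequence, which can move reads between copies. Together they took 6.66% ± 0.338 of counts at day 0 and 7.21% ± 0.639 at day 5 (exact permutation test, two-sided, p = 0.119, n = 5 per group). In WT 0 of the 85 rose and 69 fell, and 72 differed in the higher direction in Abcb10-null cells, as did 32 of the 35 biogenesis genes. Of 12 small nucleolar RNA host genes, whose transcripts carry the guides of ribosomal RNA modification in their introns, 2 rose and 3 fell, against 0 and 11 in WT.

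The nuclear-encoded mitochondrial lists held more fallers than risers. Of 78 mitochondrial ribosomal protein genes 2 rose and 66 fell (median -0.76), Mrpl47 by 2.25. Of 76 nuclear genes of the respiratory chain 14 rose and 38 fell, with Cox5a, of cytochrome c oxidase, down by 1.68 and Ndufa6, of complex I, up by 0.82. Of 22 TCA cycle genes 4 rose and 16 fell, among them Idh3a, down by 1.91, and Pcx, pyruvate carboxylase, up by 2.13. Of 7 mitochondria-encoded genes of the respiratory chain, mt-Co1 rose by 0.47, and 2 fell, mt-Nd1 by 1.03; without replicates 4 and 5, 1 rose and 4 fell. The median of these 7 was -0.09, and ranged from -0.79 to 0.16 with 1 library left out; the summed level of all 13 was 5663 to 8028 CPM at day 0 and 8209 to 10920 CPM at day 5.

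Among 20 glycolysis genes 3 rose and 12 fell. Pklr, the pyruvate kinase of red cells and liver, was at 55.0 to 84.0 CPM at day 0 and 6.999 to 18.98 CPM at day 5, a log2 fold change of -2.52; Ldha, lactate dehydrogenase A, fell by 1.63 and hexokinase 1 (Hk1) by 1.44. Of 25 antioxidant and glutathione genes 9 rose and 14 fell, against backgrounds of 33.9% and 33.3%. Pgd, of the pentose phosphate pathway, fell by 2.36 and the quinone reductase Nqo1 by 1.51, while Gpx1, the glutathione peroxidase abundant in red cells, rose by 0.80.

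**Figure D4:**
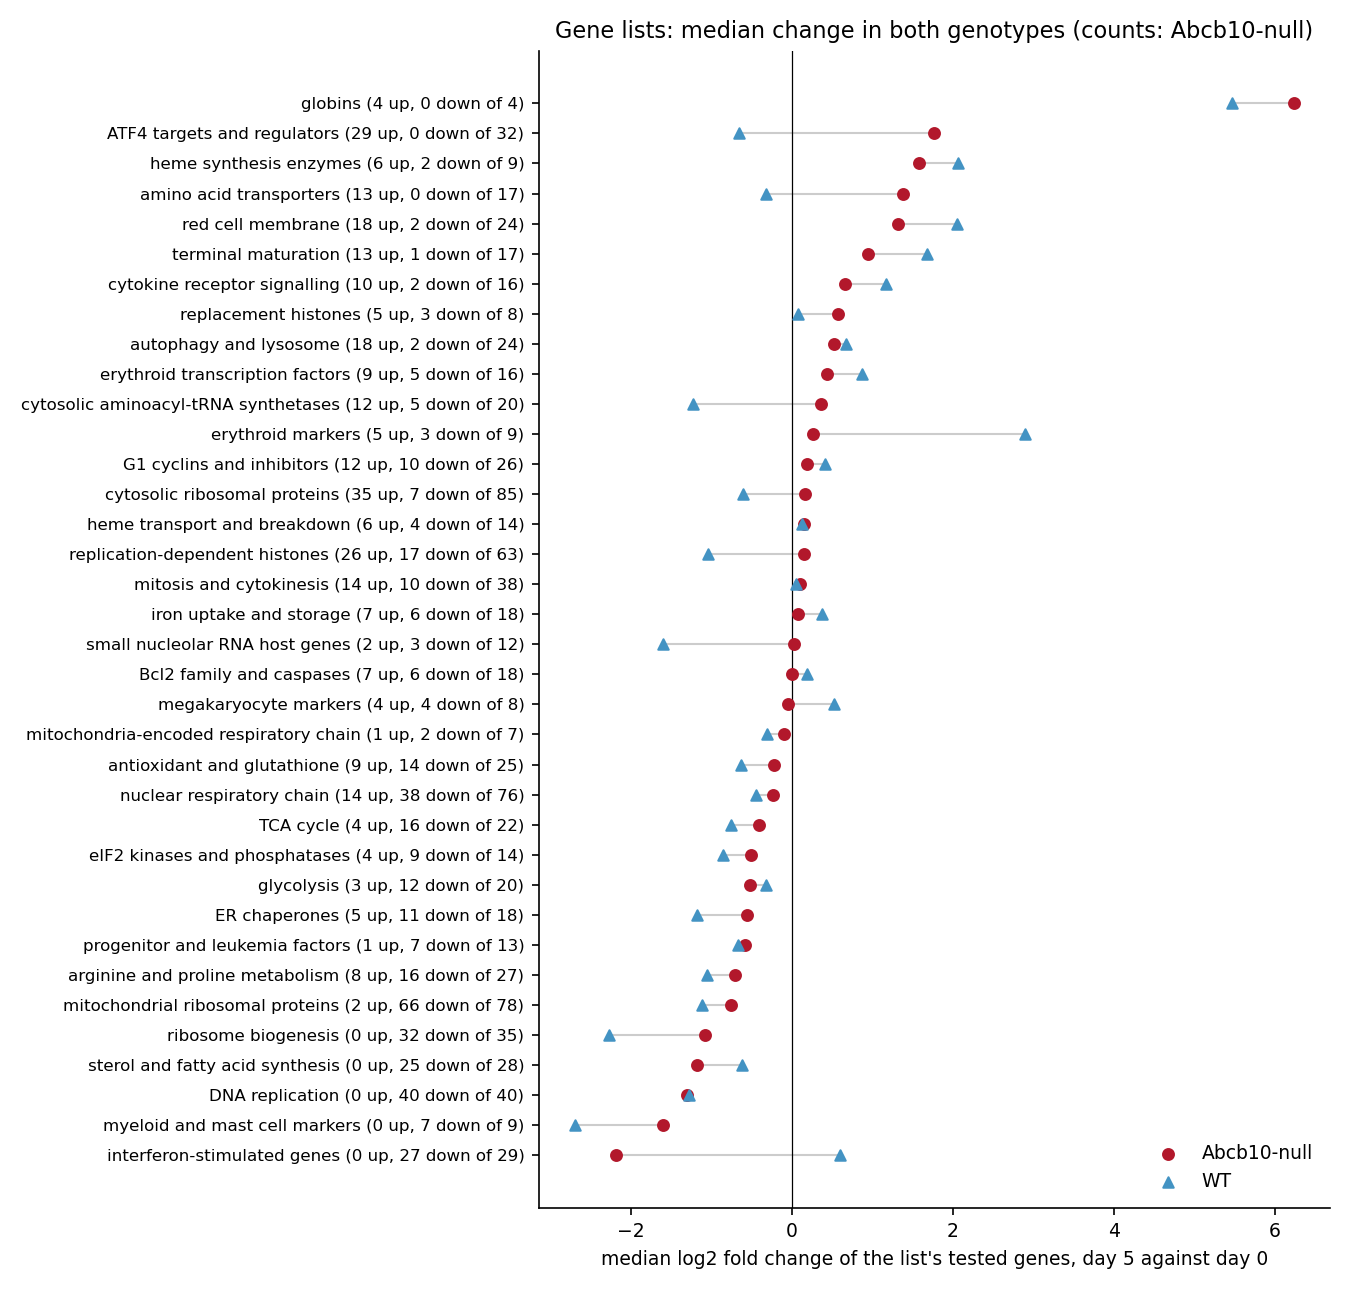
Median log2 fold change, day 5 against day 0, of the tested genes of each list in Abcb10-null (red circles) and WT (blue triangles), for lists with at least 4 genes tested; the counts beside each name are the Abcb10-null genes that rose and fell. The genotypes lie on opposite sides of 0 for ATF4 targets (1.76 and -0.66) and interferon-stimulated genes (-2.19 and 0.59), and close together for DNA replication (-1.30 and -1.28).

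Of 18 Bcl2 family and caspase genes 7 rose and 6 fell, close to the backgrounds of 33.9% and 33.3%. The pro-apoptotic Bcl2l11 (BIM) rose by 2.64 and Bbc3 (PUMA) by 2.29, and the protective Bcl2l1 (Bcl-xL) rose by 1.50 from a range of 0.952 to 1.59 CPM at day 0 to 2.55 to 5.49 CPM at day 5.

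Markers of other blood lineages were low or moved unevenly. Of 20 myeloid and mast cell markers 9 could be tested, of which 0 rose and 7 fell; their summed level was 53.1 to 61.9 CPM at day 0 and 7.86 to 21.2 CPM at day 5, and 6 of the 20 were at 0 in all day 0 libraries. Members such as Fcer1a and Cpa3 passed the filter through their day 0 counts, which favours fallers. The counts of 0 and 7 therefore cannot show which way the list moved. Its median was -1.605, but 0.16 without a filter and 0.33 with DESeq2. The Fc receptor gene Fcgr3 fell by 4.10. Cpa3, the mast cell carboxypeptidase, was at 0.667 to 1.80 CPM and then at 0.154 CPM or less, a ratio of 34.6 (95% counting interval 11.6 to 170). Of 8 megakaryocyte markers tested 4 rose and 4 fell; Plek (pleckstrin) rose by 1.38 to 1752 to 2913 CPM and Gp5 fell by 3.82. Of 12 lymphoid markers 2 were tested, and Lck rose by 0.83 and Cd79b fell by 4.30 (5.23 without day 5 replicate 4). The part of other cell states in the results above was not tested.

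The most abundant transcripts of these libraries were the same at both days. They were the long non-coding Gm26917, the elongation factor Eef1a1, the 7SK RNA Rn7sk, mt-Co1 and Rpph1, the RNA of RNase P. Ribosomal and globin RNA had been depleted before sequencing, so the ranking is not that of the cells. Gm26917 was at 18810 to 27460 CPM at day 0 and 8719 to 19620 CPM at day 5 (log2 fold change -0.95), and Rn7sk at 5459 to 11960 and then 17470 to 30730 CPM (1.31). Rpph1 rose by 1.05, and was not called without replicates 4 and 5 (0.45, edgeR adjusted p = 0.0913); Eef1a1 rose by 0.23, and was not called without them either (0.13, adjusted p = 0.151). Small non-coding RNA genes took 1.64% ± 0.481 of counts at day 0 and 4.08% ± 1.11 at day 5, and mitochondria-encoded genes 0.853% ± 0.182 and 1.48% ± 0.222. For both classes the exact two-sided permutation p was 0.00794, the smallest that 5 against 5 libraries allow (0.0212 after adjustment over 8 classes). The mitochondria-encoded class holds every gene of the mitochondrial chromosome. It includes 2 ribosomal RNA genes, both risers, whose RNA was depleted during preparation. The 13 respiratory chain genes alone summed to 7006 ± 921.8 CPM at day 0 and 9151 ± 1032 CPM at day 5.

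Most of the Abcb10-null change was shared with WT cells in direction. Of the 4380 genes that rose, 3248 (74.2%) also rose in WT, where they were 69.9% of the 4649 risers, and of the 4297 that fell 3149 (73.3%) also fell in WT, 71.3% of the 4416 fallers there. In WT 71.2% of 12723 genes tested were called. In opposite directions, 230 genes rose in Abcb10-null and fell in WT, and 180 fell in Abcb10-null and rose in WT. The difference of the change was called in all 230 and all 180. That adds no support, since opposite calls in the same libraries make such a difference close to certain.

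The difference of the change between genotypes was called in 31.5% of 14020 genes, higher in Abcb10-null cells in 2360 and lower in 2057. With library totals in place of TMM scaling the split was 1763 higher and 2827 lower (38.4% of the calls higher, against 53.4%), and the median difference over all genes moved by -0.13. Without WT day 5 replicate 5 it was 2802 higher and 2426 lower. Among the 8 named genes with the highest difference beside Chac1 and Trib3, Fcgr1, a high-affinity Fc receptor, rose by 1.99 in Abcb10-null and fell by 2.83 in WT (difference 4.81, SE 0.538, edgeR adjusted p = 6.13e-07; 5.84 without WT day 5 replicate 5). The chemokine receptor gene Ccr1 and Slamf9 had 3 counts or fewer in each WT day 5 library, so no fitted difference is given; Ccr1 was at 2.28 to 4.35 CPM and then 5.05 to 8.71 CPM in Abcb10-null cells.

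The other 3 of those 8 were small RNA genes with uneven libraries. Rn7s2, a 7SL RNA gene, was at 39.4, 23.7, 1028, 86.2 and 5655 CPM in Abcb10-null day 5 replicates 1 to 5 (difference 5.97), Rprl3 was at 736 CPM in replicate 5 and 20.04 to 62.6 CPM in the other 4 (difference 4.09), and mt-Tt, a mitochondrial tRNA, was below 2 CPM throughout (difference 4.08). Without Abcb10-null day 5 replicate 5 the differences were 3.76 for Rn7s2 and 1.63 for Rprl3. At the low end stood the interferon genes Oasl2 (-5.03), Irf7, Gbp2 (-4.53), Xaf1 and Mx2 (-4.21), next to Fbp2, for which no fitted difference is given. Lars2, a mitochondrial leucyl-tRNA synthetase gene, was at 13.6, 10.5, 302, 516 and 36.6 CPM in Abcb10-null day 0 libraries (difference -5.49; -3.20 without WT day 5 replicate 5, -4.55 without Abcb10-null day 0 replicate 4 and -6.93 without day 5 replicate 1), and Hist1h2bq at 43.9, 40.0, 2.06, 36.6 and 0.461 CPM (difference -4.37, edgeR adjusted p = 0.048). The Hist1h2bq call was lost in 15 alternative settings, among them those without Abcb10-null day 0 replicate 1, 2 or 4, any day 5 replicate, WT day 0 replicate 2, 4 or 5, or WT day 5 replicate 1 or 3. In these last 2 genes the day 0 libraries differed among themselves as much as the groups did.

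**Figure D5:**
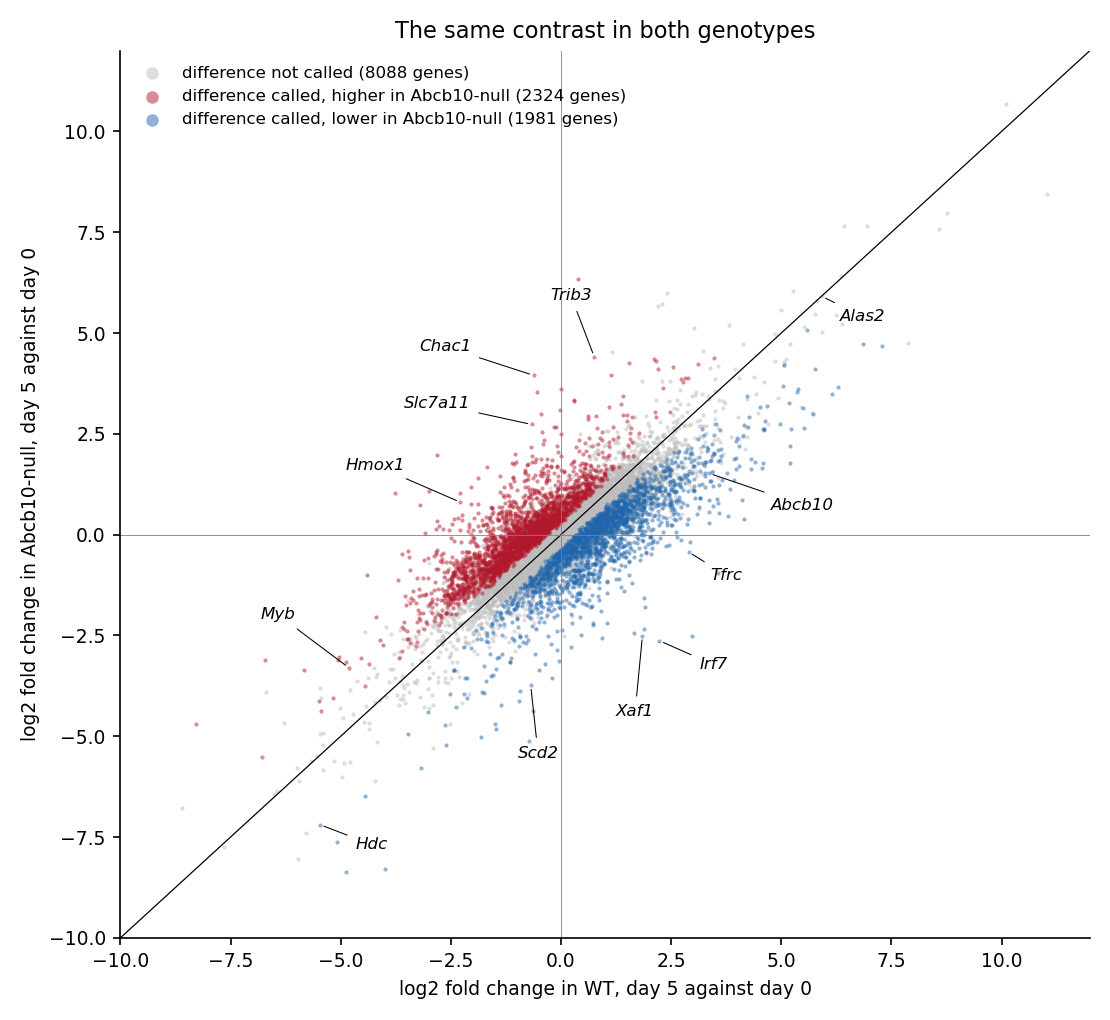
Log2 fold change, day 5 against day 0, in Abcb10-null against that in WT for the 12393 genes tested in both and for the difference; the diagonal marks equal change. Red genes changed more upward in Abcb10-null (2324 called), blue genes more downward (1981 called) and grey genes were not called; Alas2 lies on the diagonal, Chac1, Trib3 and Slc7a11 above it and Tfrc, Irf7 and Scd2 below it.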

How the data were processed

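Total RNA from 30 MEL cultures (WT and Abcb10-null, day 0, 2 and 5, 5 libraries each) was depleted of ribosomal and globin RNA and made into stranded libraries by the authors. Per the submitters' processing notes, reads were handled with STAR 2.6.1b and featureCounts 1.6.3 on GRCm38. The deposited values are whole-number counts per gene and library; the strand setting of the counting is not given in the sources used here. The table holds 54532 genes, 9219 of them without a count in any library. Counts were annotated with GENCODE on GRCm38, in which 37 identifiers had no entry; for the 108 symbols on more than 1 identifier the one with most counts was used.

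Differential expression was tested with edgeR 4.0.16 in R 4.3.3 (quasi-likelihood F test, TMM scaling, filterByExpr, Benjamini-Hochberg adjustment over all genes tested, threshold 0.05) on the 10 Abcb10-null libraries, the 10 WT libraries, and all 20 for the difference of the change between genotypes (interaction). The SE of a log2 fold change is its size divided by the square root of F. Levels are CPM on TMM-scaled totals and are not corrected for gene length. "Rose" and "fell" mean called genes. Counting intervals are exact at 95%, and a count of 0 was set to a floor of 3 counts per library; both cover counting error only. Shares of gene classes were compared by exact permutation over the 252 arrangements of 5 against 5 libraries. The scripts were tested on simulated data. No 2 libraries of a group agreed within sampling noise.

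Gene lists and the rule for named genes (the 15 strongest risers and fallers with non-overlapping groups and a mean of at least 1 CPM, the 3 strongest on each side of each list, a set of genes given by symbol, the 8 highest and lowest differences between genotypes and the 5 most abundant) were chosen with earlier results of these data known. Histone, ribosomal protein and small nucleolar RNA host genes were taken by symbol pattern. Urod, Ppox, Atf3, Oas1a, Bst2 and Trim30a were added after their values were seen. Some genes that the lists or the rule hold are not reported here. Promoter sequences are those of RefSeq on GRCm38.p6, 250 bases before the transcript start. Alternatives were DESeq2 1.42.0, other scalings and filters, a fit of all 30 libraries, removal of globin, mitochondria-encoded and small RNA genes, the replicate number as a block and each library left out.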

Additional observations from a re-analysis of the deposited data

Results flagged for a closer look

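Single libraries apart from the other 4 of their group (Dixon's test, critical value 0.71 for 5 values) were found in 26 of 350 groups of values. Chance flags about 5% of groups, but where the other 4 libraries are at 0 any count is flagged. This was so for Gzmb, Clec4d, Cd200r2, Fcer1a and Apol10c-ps, whose flags therefore say nothing about the library. Fcer1a and Apol10c-ps rested on 1 count and Cd200r2 on 2. Of the 26, which include these genes, 17 were at day 5, 7 in replicate 4, 5 in replicate 1 and 5 in replicate 5. In day 5 replicate 4 the near-absent transcripts Gzmb (0.102 CPM), Clec4d (0.922), Pilrb2 (0.614) and Cd200r2 (0.205) were higher than elsewhere, Slc7a1 was lower (116 CPM, against 148 to 158), mitochondria-encoded genes took 1.87% of the counts (others 1.32% to 1.41%) and genes not tested 1.604%. In replicate 5 Ftl1 was at 3363 CPM (others 1793 to 2230), Hist1h4c at 2231, Slc7a5 at 110.5, Slfn14 at 15.1 and Fcer1a at 0.0769 CPM. In replicate 1 Gm26917 was at 19620 CPM (others 8719 to 10050), Zfpm1 at 159.9, Csf2rb2 at 144 (others 72.7 to 90.5), Ulk1 at 24.04 (others 7.07 to 11.2) and Cd44 at 7.38 CPM. At day 0 the single values were Asl 23.9, Bnip3l 219.8 and Fdps 116 CPM in replicate 1, Oas1a 73.3 in replicate 2, Slc7a5 18.8 in replicate 3, Ripor3 0.896 and Apol10c-ps 0.064 in replicate 4, and Spi1 64.3 and Ccnd3 193 in replicate 5.

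The change from day 0 to day 5 differed between genotypes, by edgeR's interaction test, in the genes described above. Higher in Abcb10-null cells than in WT were Rn7s2 (5.97 on the log2 scale; 3.76 without Abcb10-null day 5 replicate 5), Fcgr1 (4.81), Chac1 (4.56), Rprl3 (4.09; 1.63 without the same library), mt-Tt (4.08), Trib3 (3.67), Slc7a11 (3.40), Hmox1 (3.10), Ddit3 (2.15), Rars (2.10), Asns (2.01), Atf4 (1.92), H3f3b (1.68), Myb (1.52) and Myc (1.25). Lower were Lars2 (-5.49; -3.20 without WT day 5 replicate 5), Oasl2 (-5.03), Irf7 (-4.86), Gbp2 (-4.53), Hist1h2bq (-4.37), Xaf1 (-4.35), Mx2 (-4.21), Tfrc (-3.32), Scd2 (-3.04), Cpox (-1.91), Abcb10 (-1.83), Slc25a37 (-1.65), Klf1 (-1.49), Alad (-1.45), Tal1 (-1.36), Epb42 (-1.35), Fech (-0.93) and Cdkn1b (-0.88). Not all of these calls were firm. That of Hist1h2bq was lost in 15 alternative settings, and those of Lars2 and Rn7s2 in 1 each. The mt-Tt difference rests on low levels.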

How the results depend on the processing

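The numbers of genes called moved by less than 1.5 times in all alternatives, with 1 exception: WT cells had 7810 risers instead of 4649 when no gene with a count was filtered out. In Abcb10-null cells 4223 to 4427 genes rose and 4092 to 4395 fell when 1 library was left out, and 4255 rose and 4470 fell without day 5 replicates 4 and 5 (an alternative chosen after seeing the data); DESeq2 called 5366 and 4268. The difference between genotypes ranged from 2089 to 2802 higher and 1755 to 2426 lower over libraries left out. Medians of 3 short marker lists changed sign by more than the spread between replicates: myeloid and mast cell (main -1.605; 0.33 with DESeq2, 0.16 without a filter), megakaryocyte (main -0.05; 1.00, 1.09, 0.97 under a filter of 10 counts per library, 0.91 with all 30 libraries) and lymphoid (main -1.74; 2.34, 2.80 and 0.81); their tested members differ between these settings. Medians near 0 also crossed it, with 1 library left out, for the mitochondria-encoded respiratory chain (-0.79 to 0.16), the Bcl2 family and caspases (-0.039 to 0.034), small nucleolar RNA host genes (-0.061 to 0.086) and megakaryocyte markers (-0.25 to 0.07); the iron list did so without a filter, and small nucleolar RNA host genes also with library totals. Over all lists and settings, 37 of the counts moved by more than 1.5 times and 1365 did not, and over 167 genes and the same settings a call was lost 17 times and gained 9 times. Values near 0 crossed it: Alad -0.0078 and Myc -0.065 without a filter, Myc -0.048, Bnip3l 0.063 and Asl 0.018 without replicates 4 and 5, Myc from -0.022 to 0.066 and the Alas2 difference between genotypes from -0.13 to 0.059 with 1 library left out. That difference was 0.0093 without a filter, 0.0017 without globin, mitochondria-encoded and small RNA genes, 0.0041 with the replicate block and 0.034 without replicates 4 and 5. Library totals moved the median over all genes by 0.10 in WT and by -0.13 in the difference between genotypes.

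Same-numbered libraries of day 0 and day 5 did not deviate together (correlations -0.079 to 0.084, 0 of 5 pairs over 0.1). Of the 5 day 0 libraries 1 correlated best with its own number. No pairing by number was seen, but 5 pairs cannot exclude that same-numbered cultures were related. The labels do not say whether the numbers pair the samples. With the replicate number as a block 4191 genes rose and 4246 fell in Abcb10-null cells, 4442 and 4374 in WT, and 2176 and 1767 differed; the differences of Lars2 (-3.42) and Rn7s2 (3.36) and the change of Eef1a1 (0.22) were then not called. Depth limits the genes under about 1 CPM, and at day 5 replicate 4 has the least.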
